A study of Homo sapiens with 2 samples.

Results

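Serpins are a family of structurally related proteins, most of which trap a serine or cysteine protease by offering it a flexible reactive loop as bait. Liver cells secrete many of the extracellular members, which restrain coagulation, fibrinolysis, complement and neutrophil proteases, while the clade B members mostly act inside cells. A few members carry hormones or assist protein folding and inhibit nothing. The genes examined here were the protein-coding genes of the RefSeq table of hg38 whose symbol starts with SERPIN, 34 of 19970 protein-coding genes on the chromosomes listed. They formed a cluster of 9 SERPINA genes on chromosome 14, a cluster of 3 SERPINB genes on chromosome 6, a cluster of 10 SERPINB genes on chromosome 18 and 12 single genes, among which SERPINF1 and SERPINF2 are neighbours on chromosome 17.

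HepG2, a long-established line of human liver cancer cells, was examined by Hi-C, which counts how often stretches of DNA lie close together in the nucleus, with 1 library per group. PA+OA cells were kept for 48 h in medium with 1% fatty acid-free BSA to which palmitic acid (120 µM) and oleic acid (240 µM) were added. Mock cells were kept as long with DMSO at a dilution of 1 to 1000, which the labels name for mock only. Serum was at 10% in both groups. The labels leave unclear whether the mock medium held BSA too. Each library gave a list of chromatin domains, segments whose sequences contact each other more than those outside, 2679 for mock and 2524 for PA+OA. The number of domains differed much between the lists on some chromosomes that carry serpin genes, with 80 and 40 on chromosome 18, 67 and 47 on chromosome 14, 37 and 12 on chromosome 22 and 168 and 231 on chromosome 3 in the mock and PA+OA list, respectively. On chromosome 6 the numbers were close, at 202 and 206. The lists hold no level of any gene, so the cell line could not be checked against marker genes, and nothing below is a measure of expression. The read depth is unknown, all edges are multiples of 40 kb, and with 1 library per group a difference between the lists was not tested against replicate error.

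Start sites and strands were available for 27 of the 34 genes in the RefSeq promoter table of GRCh38.p14. The 5 sequences below, each the 250 bases before a start, 5′ to 3′ along the gene's own strand, are those at the loci on which the results turn. They are SERPINB5, the serpin gene nearest to a mock boundary that the PA+OA list lacked, SERPINB4 and SERPINB3, tandem copies that share its domain, and SERPINA1 and SERPINA6, liver genes of the cluster whose domain was the same in both lists. In SERPINB5 (chr18:63476708-63476957, plus strand) capitals mark GC boxes, in SERPINB4 (chr18:63644257-63644506, minus strand) and SERPINB3 (chr18:63661894-63662143, minus strand) they mark the 3 positions at which these differ, and in SERPINA1 (chr14:94388603-94388852, minus strand) and SERPINA6 (chr14:94323337-94323586, minus strand) they mark half-sites of HNF1, a transcription factor of hepatocytes.
SERPINB5: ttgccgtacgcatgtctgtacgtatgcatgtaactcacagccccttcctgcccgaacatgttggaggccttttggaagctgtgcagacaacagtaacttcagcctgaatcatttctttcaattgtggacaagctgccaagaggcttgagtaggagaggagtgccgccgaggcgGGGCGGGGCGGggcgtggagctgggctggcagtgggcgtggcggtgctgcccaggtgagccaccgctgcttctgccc
SERPINB4: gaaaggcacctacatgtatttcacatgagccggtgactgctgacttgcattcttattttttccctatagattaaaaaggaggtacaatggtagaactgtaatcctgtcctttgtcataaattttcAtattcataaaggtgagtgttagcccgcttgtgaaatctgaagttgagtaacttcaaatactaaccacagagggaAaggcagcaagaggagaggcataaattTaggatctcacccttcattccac
SERPINB3: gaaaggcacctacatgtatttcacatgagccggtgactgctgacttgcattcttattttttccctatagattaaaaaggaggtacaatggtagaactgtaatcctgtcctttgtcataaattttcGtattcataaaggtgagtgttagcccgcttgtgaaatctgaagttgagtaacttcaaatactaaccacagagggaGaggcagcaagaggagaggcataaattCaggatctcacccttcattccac
SERPINA1: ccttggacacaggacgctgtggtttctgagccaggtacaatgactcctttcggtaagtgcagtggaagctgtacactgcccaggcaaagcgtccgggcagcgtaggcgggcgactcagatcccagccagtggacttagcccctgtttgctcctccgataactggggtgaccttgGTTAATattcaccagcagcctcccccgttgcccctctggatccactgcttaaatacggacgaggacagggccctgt
SERPINA6: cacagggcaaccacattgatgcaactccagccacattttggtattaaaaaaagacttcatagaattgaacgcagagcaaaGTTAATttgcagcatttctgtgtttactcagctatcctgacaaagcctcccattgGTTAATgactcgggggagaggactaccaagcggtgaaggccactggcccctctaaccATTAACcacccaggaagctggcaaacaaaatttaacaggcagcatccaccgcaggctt
SERPINB4 and SERPINB3 were identical at 247 of the 250 positions (98.8%), compared without gaps. The next most alike of the windows compared in that cluster, those of SERPINB13 and SERPINB7, matched at 84 positions (33.6%). Only the first listed window of each of its 8 genes with a promoter entry was compared. The table lists 2 starts of SERPINA1, 2033 bases apart, and the sequence shown precedes the downstream one.

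The short motifs were counted on both strands in all windows of this kind. The half-site GTTAAT occurred in 7 of 41 serpin windows, which belonged to 7 genes, and in 5.15% of 22155 windows of protein-coding genes. Of the 9 SERPINA genes on chromosome 14 it was present at SERPINA10, SERPINA6, SERPINA1 and SERPINA4, and elsewhere at SERPINA7, SERPINB12 and SERPINI2. The GC box GGGCGG occurred in 12 of the 41 serpin windows and in 53.7% of all windows, and the TATA box TATAAA in 8 of 41 and in 9% of all. Matches of 1 motif may overlap, as both GC boxes of SERPINB5 do. The median GC content was 71.6% over 6 windows of the 3 SERPINB genes of chromosome 6 and 52% over 13 windows of the 9 SERPINA genes. It was 39.6% over 11 windows of 8 SERPINB genes of chromosome 18 and 62% over all windows. Each listed start of a gene gave its own window, and some windows of SERPINB6 overlap, so the windows are not independent. A match of these letters is no measure of binding in these cells.

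The SERPINA cluster lay in a domain with the same coordinates in both lists. In either list, all 9 genes lay in a domain of 2640 kb, from 92040001 to 94680000 on chromosome 14. In order along the chromosome they are SERPINA10, an inhibitor of coagulation factor Xa, SERPINA6, the corticosteroid carrier of plasma, SERPINA1, the main plasma inhibitor of neutrophil elastase, SERPINA11, SERPINA9, expressed in germinal centre B cells, SERPINA12, the adipokine vaspin, SERPINA4, the tissue kallikrein inhibitor kallistatin, SERPINA5, an inhibitor of activated protein C, and SERPINA3, the acute-phase antichymotrypsin. The first 6 are on the minus strand and the last 3 on the plus strand, so the direction of transcription turns between SERPINA12 and SERPINA4, and this turn lay within the same domain as the rest.

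The cluster spans 343.59 kb, from 94280460 to 94624053, and stood at the upper end of its domain. The middle of SERPINA10 was 393 kb from the upper edge and 2247 kb from the lower one. SERPINA1 was 296 kb from the upper edge, and SERPINA3, the last gene, was 61.8 kb from it. The edge at 94680000 separated the cluster from GSC, a homeobox gene, which was the next protein-coding gene beyond it and lay in another domain in both lists. On the lower side PPP4R4, which encodes a phosphatase subunit, shared the domain in both. The domain held 26 other protein-coding genes in each list, among them the interferon-induced genes IFI27, IFI27L1 and IFI27L2, and CHGA and LGMN. The lower edge lay inside TRIP11.

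Domains with equal coordinates were not the rule on this chromosome. Of its 605 genes, 125 (20.7%) lay in a domain of equal coordinates, against 33.3% of all 19970 genes. Among the 578 chromosome 14 genes placed in both lists, 335 (58.0%) lay in a longer PA+OA domain and 118 (20.4%) in a shorter one. The 9 genes share 1 domain and so amount to 1 observation.

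**Figure D1:**
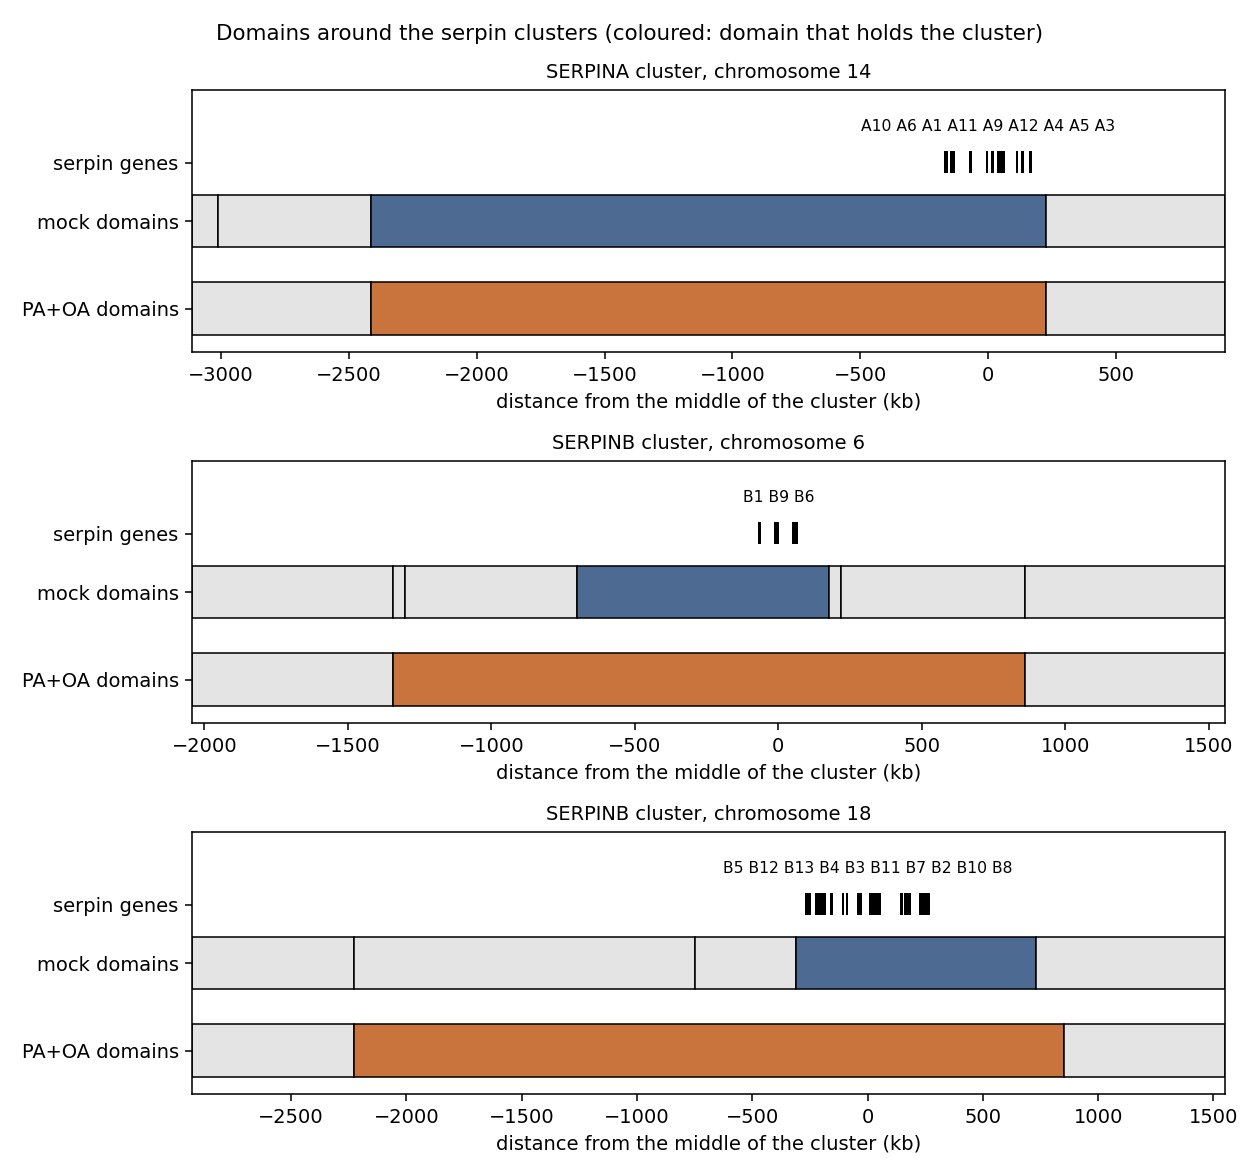
Maps of the 3 clusters, with the distance from the middle of each cluster in kb on the horizontal axis and black bars for the serpin genes, named in order above them. The coloured bars are the domains that hold the cluster, 2640 kb in both lists for SERPINA, 880 kb (mock) and 2200 kb (PA+OA) for SERPINB on chromosome 6, and 1040 kb and 3080 kb for SERPINB on chromosome 18; grey bars are neighbouring domains.

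The SERPINB cluster of chromosome 18 lay in a domain that was 2.96 times as long in the PA+OA list. The mock domain ran from 63440001 to 64480000 (1040 kb), and the PA+OA domain from 61520001 to 64600000 (3080 kb). Its 10 genes, which span 542.82 kb, are SERPINB5, known as maspin, SERPINB12, SERPINB13, the squamous cell carcinoma antigens SERPINB4 and SERPINB3, which inhibit different classes of protease despite their close similarity, SERPINB11, SERPINB7, SERPINB2, an inhibitor of plasminogen activators, SERPINB10 and SERPINB8. Many of them are known for their expression in skin and other surface epithelia.

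In the mock list the cluster was almost alone in its domain, with HMSD as the only other protein-coding gene. The mock edge at 63440000 lay between VPS4B, whose middle was 34.2 kb away, and SERPINB5, whose middle was 51.0 kb away. The start of SERPINB5 was 36.96 kb from the edge, which is less than the width of 1 bin. No PA+OA edge was nearer to this mock edge than the one at 64600000, 1160 kb off. The PA+OA domain therefore held 10 other genes, RNF152, PIGN, RELCH, TNFRSF11A, ZCCHC2, PHLPP1, BCL2, KDSR, VPS4B and HMSD. BCL2, which encodes an inhibitor of apoptosis, and PHLPP1, which encodes a phosphatase of AKT, thus shared a domain with the serpins in the PA+OA list and lay across at least 1 edge from them in the mock list. The PA+OA domain enclosed 3 mock edges, at 63000000, 63440000 and 64480000. Its lower edge at 61520000, inside CDH20, was an edge of both lists, and the upper edges of the lists stood 120 kb apart, beyond SERPINB8 and before CDH7, in a stretch without protein-coding genes.

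The nearest edge moved away from each of the 10 genes. The distance from the gene middle to the nearest edge for SERPINB5 was 51.0 kb for mock and 1109 kb for PA+OA, 201 and 959 kb for SERPINB4, and 219 and 941 kb for SERPINB3. For SERPINB8, at the other end, it was 485 and 605 kb. The difference was thus largest at the end of the cluster that faces BCL2 and smallest at the far end. On chromosome 18 as a whole, 210 of 260 genes placed in both lists (80.8%) lay in a longer PA+OA domain and 2 in a shorter one, so the cluster did what most genes of its chromosome did.

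The SERPINB cluster of chromosome 6 lay in a domain 2.5 times as long in the PA+OA list. The mock domain ran from 2200001 to 3080000 (880 kb) and the PA+OA domain from 1560001 to 3760000 (2200 kb). The cluster spans 139.46 kb and holds SERPINB1, an inhibitor of neutrophil proteases, SERPINB9, the inhibitor of granzyme B, and SERPINB6, all on the minus strand. Their mock domain held 3 other genes, MYLK4, WRNIP1 and NQO2, the last of which encodes a quinone reductase. The PA+OA domain held 15 other protein-coding records, among them FOXC1, GMDS, RIPK1, BPHL, TUBB2A, TUBB2B, PSMG4, SLC22A23 and PXDC1. The 15 include C4B_2, a complement gene of the HLA region, whose position in the gene table may be one on an alternate sequence.

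The mock edges inside this PA+OA domain stood at 2200000, within GMDS, and at 3080000 and 3120000, the first of these within RIPK1, which encodes a kinase of inflammatory cell death. Both outer edges of the PA+OA domain, at 1560000 and 3760000, were also mock edges, so the difference consisted of mock edges that the PA+OA list lacked. The nearest edge was 243 kb from the middle of SERPINB1 for mock and 923 kb for PA+OA, 185 and 865 kb for SERPINB9, and 120.02 and 800.02 kb for SERPINB6. On this chromosome a longer PA+OA domain was the less common outcome, with 234 of 1045 genes (22.4%) in a longer domain and 414 (39.6%) in a shorter one. The SERPINB loci of chromosomes 6 and 18 thus differed between the lists in the same direction, although the 2 chromosomes as a whole did not.

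Neither list divided any of the 3 clusters. Each of the 8, 2 and 9 adjacent pairs of the SERPINA, chromosome 6 and chromosome 18 clusters shared a domain in both lists, whichever end of the gene records or listed start site was used to place the genes. Of all adjacent protein-coding genes, 88.7% shared a mock domain and 89.3% a PA+OA domain. Runs of 9 consecutive genes lay in 1 mock domain in 45.6% of cases and in 1 PA+OA domain in 48.4%. The figures for runs of 10 genes were 42.3% and 45.3%, and for runs of 3 genes 79.2% and 80.2%. Undivided runs of as many genes were therefore common, although the runs were not matched to the clusters by length in kb. The gaps between adjacent genes ranged from 9.92 kb, between SERPINA11 and SERPINA9, to 53.4 kb, between SERPINA6 and SERPINA1, in the SERPINA cluster, and from 4.07 kb, between SERPINB2 and SERPINB10, to 82.3 kb, between SERPINB7 and SERPINB2, on chromosome 18.

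**Figure D2:**
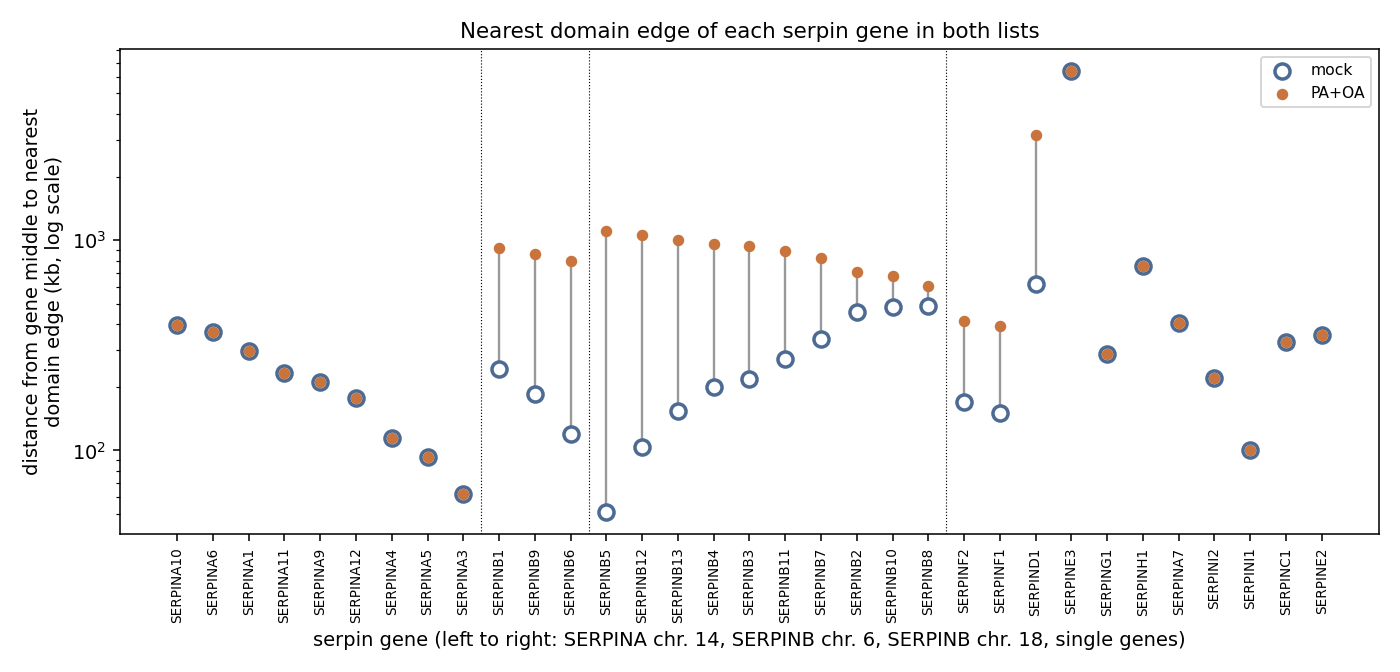
Distance from the middle of each of 33 serpin genes to the nearest domain edge, in kb on a log scale, with open circles for the mock list and filled points for the PA+OA list. The 9 SERPINA genes of chromosome 14 have equal distances in both lists, from 393 kb at SERPINA10 to 61.8 kb at SERPINA3, while the points of both SERPINB clusters lie farther from an edge in the PA+OA list.

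SERPINC1 and SERPIND1, single genes for inhibitors of coagulation, lay in longer PA+OA domains. The coagulation genes SERPINA10 and SERPINA5 lay in the SERPINA domain, which had equal coordinates in both lists. SERPINC1 encodes antithrombin, the main inhibitor of thrombin and factor Xa. Its domain on chromosome 1 measured 1720 kb for mock and 7680 kb for PA+OA, with the upper edge at 174240000, inside RABGAP1L, in both. The lower edge stood at 172520000 in the mock list and at 166560000 in the PA+OA list, and the number of other protein-coding genes in the domain was 13 and 63. On chromosome 1, 473 of 2050 genes (23.1%) lay in a longer PA+OA domain and 607 (29.6%) in a shorter one. SERPIND1, which encodes heparin cofactor II, another thrombin inhibitor, had a mock domain of 1400 kb with 21 other genes on chromosome 22. Its PA+OA domain measured 26360 kb and held 357 other genes. This domain enclosed 19 mock edges, and 369 of 381 genes of chromosome 22 placed in both lists (96.9%) lay in a longer PA+OA domain, so SERPIND1 shared this with nearly its whole chromosome.

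The differences at SERPINF2, SERPINF1 and SERPING1 were smaller. SERPINF2, which encodes the plasmin inhibitor antiplasmin, and SERPINF1, which encodes PEDF, a secreted protein that inhibits no protease and restrains vessel growth, lie 6.79 kb apart. Their shared domain on chromosome 17 measured 1160 kb for mock and 1400 kb for PA+OA, and it took in RTN4RL1, DPH1, OVCA2 and HIC1. SERPING1, which encodes the inhibitor of complement C1, lay in 1240 and 1280 kb on chromosome 11, a difference of 1 bin, with the same 33 other genes. It counts as kept in the sense given below.

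The members with other roles were mixed. SERPINA7, the thyroxine carrier of plasma on chromosome X, lay in 2920 kb for mock and 3520 kb for PA+OA, which added 11 genes, most of them of the BEX and TCEAL families. SERPINH1, the collagen chaperone HSP47 of the endoplasmic reticulum, lay in 2440 and 3000 kb on chromosome 11. The domain of SERPINH1 also held DGAT2, the triglyceride synthesis gene, MOGAT2, UCP2 and UCP3 in both lists, and the PA+OA domain added 7 genes from ARHGEF17 to COA4. SERPINE2, which encodes protease nexin 1, lay in 920 and 1400 kb on chromosome 2, where KCNE4 was added. SERPINE3 lay in 31480 kb with equal coordinates in both lists, on chromosome 13, which was divided into 19 and 5 domains.

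SERPINI1 and SERPINI2 lie 259 kb apart on chromosome 3, with WDR49 and PDCD10 between them, and an edge at 167680000 separated them in both lists. SERPINI1, which encodes the neuronal inhibitor neuroserpin, lay above it in 2080 kb, with GOLIM4, PDCD10 and MECOM, in both lists. SERPINI2, expressed in the pancreas, lay below it in 1840 kb for mock and in 600 kb for PA+OA, whose edge at 167080000 had no mock counterpart. This was the 1 locus at which the PA+OA domain was the shorter one. The genes did not change, since ZBBX and WDR49 were its neighbours in both. On chromosome 3, 497 of 1060 genes (46.9%) lay in a shorter PA+OA domain.

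**Figure D3:**
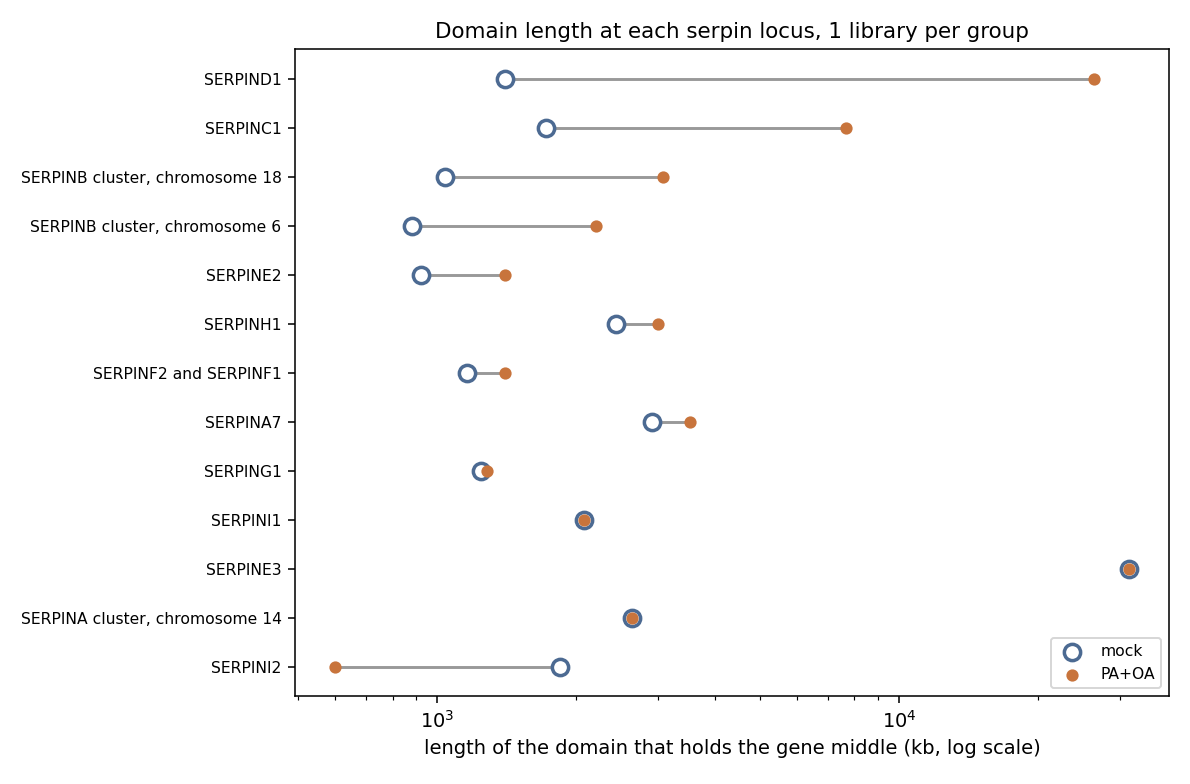
Length of the domain that holds each of 13 serpin loci, in kb on a log scale, with open circles for mock and filled points for PA+OA, ordered by their ratio. The PA+OA domain was longer at 9 of these loci, from 1.03 times at SERPING1 to 18.8 times at SERPIND1, equal at 3 and shorter at SERPINI2.

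Since genes of 1 cluster share a domain, the 34 genes amount to 14 loci, each with its own mock and PA+OA domain. The PA+OA domain was longer at 10 of the 14 (71.4%), equal at 3 and shorter at 1. Among the 2671 combinations of a mock and a PA+OA domain that hold the middle of a protein-coding gene, 35.8% had the longer domain in the PA+OA list, 30% the shorter one there, and 33.4% had equal coordinates. Outside chromosomes 5, 10, 13, 14, 15, 18 and 22, whose domain number fell most in the PA+OA list, it was longer at 8 of 10 serpin loci and at 31.0% of 2139 combinations. Counting longer and shorter domains of the serpins was not among the planned results, and this split of chromosomes was chosen after the values were seen. The median domain of the 14 loci measured 1560 kb for mock and 2420 kb for PA+OA, against 800 and 840 kb over all combinations. These medians are not like for like. The loci were reached through genes, which favours domains with many genes, while each combination counts once however few genes it holds. Weighted by gene, the median over the serpin genes was 1200 kb for mock and 2640 kb for PA+OA. Over all genes it was 1480 and 1560 kb. The 2640 kb is the length, in both lists, of the domain that holds the 9 SERPINA genes of chromosome 14. The lower mock value of the serpins depended on the SERPINB cluster of chromosome 18, whose 10 genes share 1 domain. Without that cluster the serpin medians were 2260 kb for mock and 2640 kb for PA+OA, both above those of all genes. The PA+OA domains of 9 loci enclosed mock edges, 1 at 6 of them and 31 in all. Of these 31, 19 lay in the PA+OA domain of SERPIND1 on chromosome 22. In the other direction, 1 mock domain, that of SERPINI2, enclosed a PA+OA edge. Enclosed edges were not counted over all combinations, so these counts have no share to be set against. All these shares and counts describe 1 library per group and were not tested. The depth of the libraries, on which the number of edges can depend, is unknown.

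**Figure D4:**
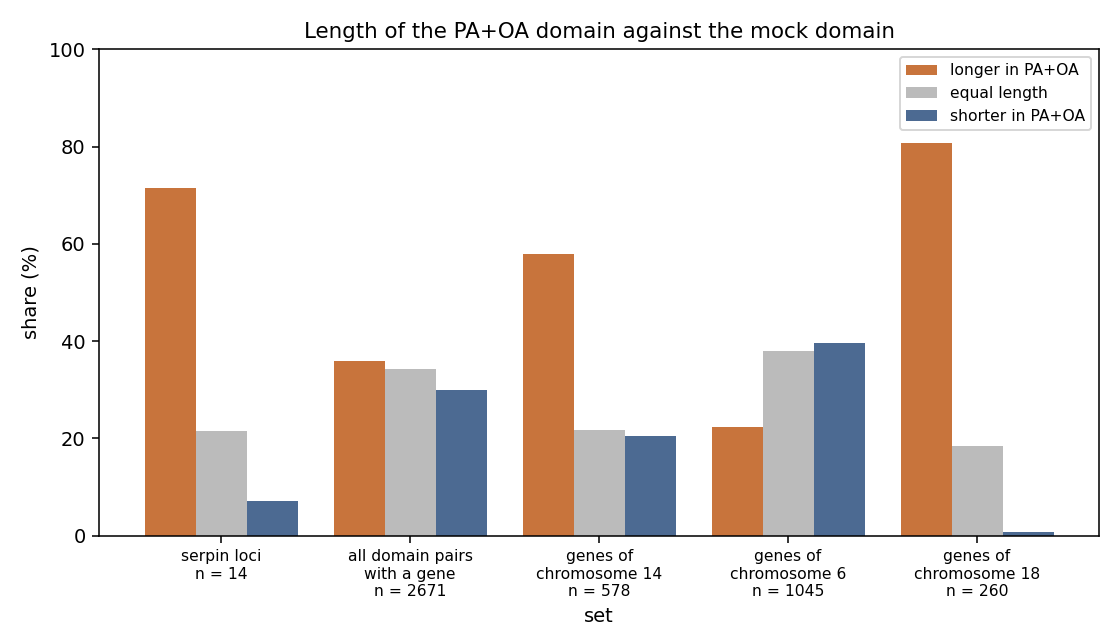
Share in percent with a longer, equal or shorter PA+OA domain, for the 14 serpin loci, for all 2671 domain combinations that hold a gene, and for the genes of the 3 chromosomes that carry clusters. A longer PA+OA domain was found at 71.4% of serpin loci and 35.8% of all combinations, and at 58.0%, 22.4% and 80.8% of the genes of chromosomes 14, 6 and 18.

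Counted by gene, 22 of the 34 serpin genes (64.7%) lay in a longer PA+OA domain and 1 in a shorter one, against 36.2% and 29.3% of the 19598 genes placed in both lists. Of these 22, 10 are the SERPINB genes of chromosome 18, which share 1 domain. Of the 34 serpin genes, 12 (35.3%) lay in a kept mock domain, one whose edges both have a PA+OA edge within 1 bin and which encloses no other PA+OA edge, against 40.5% of all 19970 genes. They were the 9 SERPINA genes of chromosome 14, SERPINI1, SERPINE3 and SERPING1. The same 12 lay in kept PA+OA domains, where the share of all genes was 40.4%. The first 11 of these genes had equal coordinates in both lists (32.4%, against 33.3% of all genes). These shares were near those of all genes, and without the SERPINA cluster the number in kept mock domains was 3 of 25 (12%). By locus, 4 of the 14 mock domains were kept, against 49.4% of the 2241 mock domains that hold a gene. In the latter share a domain with few genes counts as much as one with many. No serpin gene had its middle 50 kb or less from a boundary that the other list lacked, where 5.8% of all genes lay. SERPINB5, at 51.0 kb, was just outside this window, and its start was inside it.

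A list of 55 genes of target proteases and partners of serpins also held AGT, which itself encodes a serpin. Of the 55, 53 lay in both lists, 14 of them (26.4%) in a longer PA+OA domain and 14 (26.4%) in a shorter one, against 36.2% and 29.3% of all genes. Without AGT the shorter ones were 13. Several of these genes share a domain, and counted by combination of domains 12 of 38 (31.6%) were longer and 11 (28.9%) shorter, against 35.8% and 30% of all combinations. Kept mock domains held 29 of the 55 genes (52.7%), against 40.5% of all genes, and 7 of the 29 were kallikrein genes of the KLK family that share 1 domain of 4080 kb. By domain, 19 of the 39 mock domains of the list (48.7%) were kept, against 49.4% of all mock domains that hold a gene. The thrombin gene F2 lay in 480 kb, the plasminogen gene PLG in 1160 kb, the tissue plasminogen activator gene PLAT in 240 kb, and the complement protease genes C1R and C1S together in 320 kb, with equal coordinates in both lists. ELANE and PRTN3, which encode the neutrophil proteases inhibited by SERPINA1 and SERPINB1, lay in 480 kb for mock and 1000 kb for PA+OA. GZMB, the target of SERPINB9, and CTSG, that of SERPINA3, lay together in 1640 and 1160 kb on chromosome 14, on which the SERPINA cluster also lies. The urokinase gene PLAU lay in 920 and 400 kb. None of the 55 shared a mock domain with one of the 34 serpin genes. TMPRSS6 alone shared a PA+OA domain with one, the long domain of SERPIND1, which held 357 other genes. The share of all genes that lay in a domain with a serpin gene was not counted. Whether so few shared domains are unusual for a list of 55 genes is therefore not known.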

How the data were processed

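The submitters' processing notes name FastQC, HiC-Pro and the build hg38. For the caller of domains, the contact normalization and the depth, the sources used here give nothing. The deposited files hold 1 list of domain positions per library, in base pairs and with no score, and titles gave the groups. Each gene was assigned to the domain that holds the midpoint of its record in the RefSeq table of GRCh38.p14, with edges shared if within 1 bin of 40 kb. Entries of zero length (136 mock, 108 PA+OA) hold no gene. The scripts used Python 3.11.15 and pandas 2.3.3. Simulated lists with exact edges served to test the placement in domains and the recognition of kept, divided and merged domains. No other step was tested in this way. With 1 library per group, the treatment was not tested. Members, lists and alternatives were chosen with earlier results of these data known. Every member was to be named (1 is counted but not reported here by name), with the neighbours of each locus and of the edges inside it, and promoters were to be shown for members with an edge within 1 bin of their start, which applied to SERPINB5. The other 4 sequences were chosen after the values were seen. A planned comparison of protein identity was not run, and promoter windows were compared instead. SERPINC1, SERPING1, SERPINF1, SERPINF2, SERPINB10 and SERPINB11 had no promoter entry.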

Additional observations from a re-analysis of the deposited data

How the results depend on the processing

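No paired analysis was possible because each group has 1 library and no result comes from a test. Of 88 values under 14 alternative settings, 74 stayed within 1.5 times the count, or within 1 bin of the median, first given. Of the 14 others, 11 came from leaving members out and 3 from the placement of genes or the window. Without the SERPINA cluster, kept mock and kept PA+OA domains each held 3 serpin genes and domains of equal coordinates 2. Without members on chromosomes of long domains these counts were 2, 2 and 1. Under either setting the median domain over genes was 1040 kb (mock) and 3080 kb (PA+OA), against 1200 and 2640 kb with all 34 genes. The 1040 and 3080 kb are the lengths of the domain that holds the SERPINB cluster of chromosome 18. With only that cluster left out, the mock median was 2260 kb. The count near a boundary of 1 list only rose from 0 to 1, SERPINB5, when genes were placed by their lower end, when the window was 100 kb, and, as an alternative added after the data were seen, when genes were placed by their first listed start. The number of loci with a longer PA+OA domain, which was not a planned result, ranged from 8 to 10 over the settings run. The number of domains that held each cluster was 1 in each list under the settings run. How far depth or the caller sets the edges was not tested.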

Other observations

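Of 9 SERPIN-named records that are not protein-coding, SERPINA2 (94364318 to 94366702) and SERPINA13P (94640725 to 94646994), transcribed pseudogenes of chromosome 14, lie on the same side of the edge at 94680000 as the SERPINA genes, so the domain of both lists holds them too. SERPINB9P1 (2854657 to 2876510), on chromosome 6, lies between SERPINB1 and SERPINB9. AGT, the angiotensinogen gene on chromosome 1, encodes a serpin that inhibits no protease under a symbol of another form, and lay in 2920 kb for mock and 1800 kb for PA+OA, a shorter domain as at SERPINI2.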
